A study of Mus musculus with 46 samples.

Results

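The 10 tubulin genes described here are 5 α-tubulins (Tuba1a, Tuba1b, Tuba3a, Tuba4a and Tuba8) and 5 β-tubulins (Tubb2a, Tubb3, Tubb4b, Tubb5 and Tubb6), out of 16593 genes on a mouse bead array. They were chosen by name, with earlier results of these data known, as all 14 probes that the array's annotation gives to these symbols, over all doses and times. Tuba3a had 4 probes, Tubb5 had 2 and the other 8 genes had 1 each. An α and a β subunit form the dimer from which microtubules are built. In the testis, microtubules make the meiotic spindle, the manchette that shapes the spermatid head, the axoneme of the sperm tail and the tracks along the columnar Sertoli cell.

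Adult male Swiss mice drank water with 0 (control), 0.001, 0.01, 0.1, 1 or 10 µg/ml acrylamide for 1, 6 or 12 months, and RNA of single testes was measured on 1 array each, 46 in all. Acrylamide is a small reactive compound that forms in heated starchy food. Per the labels, the mice were 3 to 6 months old at 1 month of exposure, 11 to 12 at 6 months and 16 to 17 at 12 months. Exposure time and age therefore run together, also in the controls, which drank water without acrylamide. There were 18 groups of dose and time. At 1 and 6 months a group had 3 arrays, but 0.1 µg/ml had 2 at 1 month. At 12 months control, 0.001 and 0.01 µg/ml had 2 each, 0.1 µg/ml had 3, and 1 and 10 µg/ml had 1 each. A lone array was assumed to vary like those of the other groups. Values are the authors' log2 values, which run from 7.55 to 14.45 over all probes, and differences are given with the standard error (SE) of the limma fit. In whole testis, fewer cells of a type and less RNA per cell cannot be told apart.

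The sample numbers run from 1 to 46 by time and then dose. No slide is named in the labels. A slide of this type carries 8 arrays, so runs of 8 consecutive numbers are called sets here, with 6 arrays in set 6. Of the 1-month groups, set 1 held control, 0.001 µg/ml and 2 arrays of 0.01 µg/ml, and set 2 all others but 1 array of 10 µg/ml. That array shared set 3 with control, 0.001 µg/ml and 1 array of 0.01 µg/ml of 6 months. Set 4 held the doses from 0.01 to 1 µg/ml of 6 months. Set 5 combined the 10 µg/ml group of 6 months with the 12-month controls, 0.001 µg/ml and 1 array of 0.01 µg/ml, and set 6 held the remaining 12-month arrays. Replicate 3 of 0.001 µg/ml at 1 month stood apart: over 25697 probes it correlated with the rest at 0.844 on average, while every other array reached at least 0.974. It was kept, and the Tuba1a and Tubb6 differences that it moved are given without it too. The markers and the lists of other genes were read with it only. Of these probes, 15418 were bright enough to be tested, and a call is an adjusted p under 0.05 over these. The markers of late germ cells were bright, with a mean log2 value of 9 elongating spermatid genes of 12.97 to 13.57 over the arrays, while the 1 tested marker of the epididymis, of 3 on the array, stayed between 7.69 and 7.90, near the lowest values of the array.

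Of the 14 tubulin probes, 11 from 8 genes passed the filter on brightness, which used the mean over all 46 arrays. The 3 that did not lay near the lowest value of the array on every array: Tubb2a, a β-tubulin of brain, at 7.65 to 7.82, Tubb3, the β-tubulin of neurons that Sertoli cells also make, at 7.62 to 7.89, and a second probe of Tubb5 (ILMN_1217584) at 7.60 to 7.84. Tuba4a passed narrowly, with a mean of 7.77 against the limit of 7.76 and a range of 7.69 to 7.87. No detection p-values were used here, and differences between dim probes are compressed in the deposited values, so little can be read from these 4 probes. In a fit of all probes Tubb3 differed by -0.07 ± 0.02 between 12 months and 1 month (adjusted p = 0.00801), a small step on this compressed scale, and the other 2 of the 3 dim probes passed in no time or dose comparison. The remaining 10 probes, of 7 genes, carry the results. Probes bind with different strength, so levels are compared within a probe and not between genes.

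The 7 genes differ in where they are known to work. Tuba3a is an α-tubulin made mainly in the testis and shares its protein with the near-identical copy Tuba3b, Tuba8 is a divergent α-tubulin found in testis and muscle, and Tubb4b is the β-tubulin best known from cilia and flagella. Tuba1b and Tubb5 are the general α- and β-tubulins of dividing and somatic cells, Tuba1a is the main α-tubulin of developing neurons, and Tubb6 is a β-tubulin of many tissues. Promoters of 4 genes are shown because the first 3 belong to the tubulins with a probe lower after 10 µg/ml at 6 months and the last to the one with the largest rise there. They are the 250 bases before the transcript start, 5′ to 3′ on the gene's strand, from RefSeq on the build GRCm38.p6, with each CCAAT or its reverse ATTGG in capitals. CCAAT is the box bound by the factor NF-Y.

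Tuba8 (chr6:121210484-121210733, plus strand): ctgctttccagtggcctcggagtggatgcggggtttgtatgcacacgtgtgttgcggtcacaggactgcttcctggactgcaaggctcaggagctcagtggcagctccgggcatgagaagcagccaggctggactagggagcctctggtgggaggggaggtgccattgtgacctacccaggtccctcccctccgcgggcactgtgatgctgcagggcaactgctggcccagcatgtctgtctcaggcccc
Tuba3a (chr6:125286082-125286331, minus strand): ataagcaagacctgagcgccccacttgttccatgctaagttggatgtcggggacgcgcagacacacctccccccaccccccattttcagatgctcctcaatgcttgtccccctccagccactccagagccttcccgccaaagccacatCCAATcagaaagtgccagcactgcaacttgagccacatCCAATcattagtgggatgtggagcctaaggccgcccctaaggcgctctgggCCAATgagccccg
Tubb4b (chr2:25224703-25224952, minus strand): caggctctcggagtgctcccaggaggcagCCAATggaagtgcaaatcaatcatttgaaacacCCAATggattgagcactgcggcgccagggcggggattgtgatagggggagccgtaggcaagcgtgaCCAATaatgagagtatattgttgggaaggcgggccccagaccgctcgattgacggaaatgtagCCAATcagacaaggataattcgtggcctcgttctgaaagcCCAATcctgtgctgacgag
Tubb5 (chr17:35838302-35838551, minus strand): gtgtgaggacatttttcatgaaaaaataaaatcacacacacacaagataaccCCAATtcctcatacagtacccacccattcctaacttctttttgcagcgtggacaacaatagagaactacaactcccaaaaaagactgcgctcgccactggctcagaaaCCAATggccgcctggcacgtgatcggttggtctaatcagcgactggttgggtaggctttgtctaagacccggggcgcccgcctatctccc

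The Tubb4b window held 5 CCAAT boxes, between positions -221 and -19 before the start, Tuba3a held 3, between -102 and -13, and Tubb5 held 2, at -198 and -90. The Tuba8 window held 0 on either strand. Among the windows of the same length before 32851 RefSeq transcript starts, 33.8% held the box at least once on either strand and 2.79% held it 3 times or more. The TATA box (TATAAA) stood in 12.4% of these windows. The GC box (GGGCGG), to which Sp1 binds, stood in 32.7%. The short site of CREB (TGACG), which also lies within its full palindromic site, stood in 17.8%. The Tuba8 window had none of these 3, nor had that of Tubb5. The Tuba3a window had 1 GC box, at -34, and the Tubb4b window 1 GC box, at -162, and 2 short CREB sites, at -73 and -7. Tuba1a and Tubb3 held 1 CCAAT each, and Tuba1b, Tuba4a and Tubb2a held 0; the promoter of Tubb6 was not analysed here. A match is a run of letters in this window and was not measured as a binding site.

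Between 1 and 12 months, averaged over the 6 doses, Tuba8, Tubb4b, Tuba1a, Tubb6 and 2 of the 4 Tuba3a probes fell and Tuba1b and Tubb5 rose. That is 8 of 11 tubulin probes, 6 lower and 2 higher, or 72.7%, beside 41.2% of all probes tested (22.9% higher and 18.3% lower). At 6 against 1 month 5 of 11 passed, 4 lower and 1 higher, beside 17.3% of all probes (9.38% higher and 7.91% lower). At 12 against 6 months it was 4 of 11, 3 lower and 1 higher, beside 9.50% (5.25% higher and 4.24% lower). The median difference over the 11 probes was -0.23 for 12 against 1 month, where that of all probes was 0.01.

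The largest change was that of Tuba8. Its lowest, median and highest log2 values were 10.83, 11.39 and 11.86 over 17 arrays at 1 month, 9.94, 10.58 and 11.85 over 18 arrays at 6 months and 9.80, 10.22 and 11.14 over 11 arrays at 12 months. In the controls alone, the 2 arrays at 12 months lay at 9.80 and 10.08, against 11.65, 11.52 and 11.74 for the 3 at 1 month, with no overlap. Over all doses Tuba8 was 1.94-fold lower at 12 than at 1 month (log2 difference -0.96 ± 0.13, adjusted p = 1.61e-06) and differed by -0.57 ± 0.11 at 6 against 1 month (adjusted p = 0.000906). At 12 against 6 months the difference was -0.39 ± 0.13 (adjusted p = 0.0485), a call that was lost in 32 of the fits that left out 1 array.

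Tubb4b spanned 13.34 to 14.04 at 1 month, 13.24 to 13.67 at 6 months and 13.19 to 13.54 at 12 months, with medians of 13.61, 13.35 and 13.40. It fell by 0.20 ± 0.04 at 6 against 1 month (adjusted p = 0.00169) and by 0.23 ± 0.05 at 12 against 1 month (adjusted p = 0.00051), and its ranges overlap widely. Tuba1a had medians of 9.72, 9.63 and 9.42 at 1, 6 and 12 months. It differed by -0.33 ± 0.06 at 12 against 1 month (adjusted p = 0.000152), and by -0.30 ± 0.05 without the array that stood apart, on which it was highest, at 10.39.

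Tubb6 had medians of 10.63, 10.41 and 10.14 at 1, 6 and 12 months, and its lowest value, 8.10, came from the array that stood apart. All other arrays lay between 9.75 and 11.06. With that array the difference at 12 against 1 month was -0.48 ± 0.18 (adjusted p = 0.0366), and without it -0.62 ± 0.09 (adjusted p = 7.98e-07). At 6 against 1 month the difference was -0.09 ± 0.15 (adjusted p = 0.739) with it and -0.24 ± 0.07 (adjusted p = 0.0131) without it. At 12 against 6 months it was -0.39 ± 0.18 (adjusted p = 0.172) with it and -0.39 ± 0.08 (adjusted p = 0.00161) without it. The call was lost in 8 fits that kept that array and left out 1 other, while over all fits with 1 array left out the value ran from -0.62 to -0.40. It was lost too without the filter on dim probes and on the non-normalized intensities.

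Tuba1b and Tubb5 went the other way. Tuba1b had medians of 11.91 at 1 month, 12.05 at 6 months and 12.24 at 12 months, with 11.58 to 12.42, 11.67 to 12.43 and 12.11 to 12.39 as ranges, so its low values were absent at 12 months. It rose by 0.29 ± 0.06 at 12 against 1 month (adjusted p = 0.000227) and by 0.21 ± 0.06 at 12 against 6 months (adjusted p = 0.0213). Tubb5 had medians of 10.93, 11.37 and 11.39 at 1, 6 and 12 months, and was 1.31-fold higher at 12 than at 1 month (0.39 ± 0.07, adjusted p = 8.97e-05). In controls Tubb5 lay at 11.64 and 11.61 at 12 months, against 10.87, 11.22 and 10.93 at 1 month, again with no overlap.

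**Figure D1:**
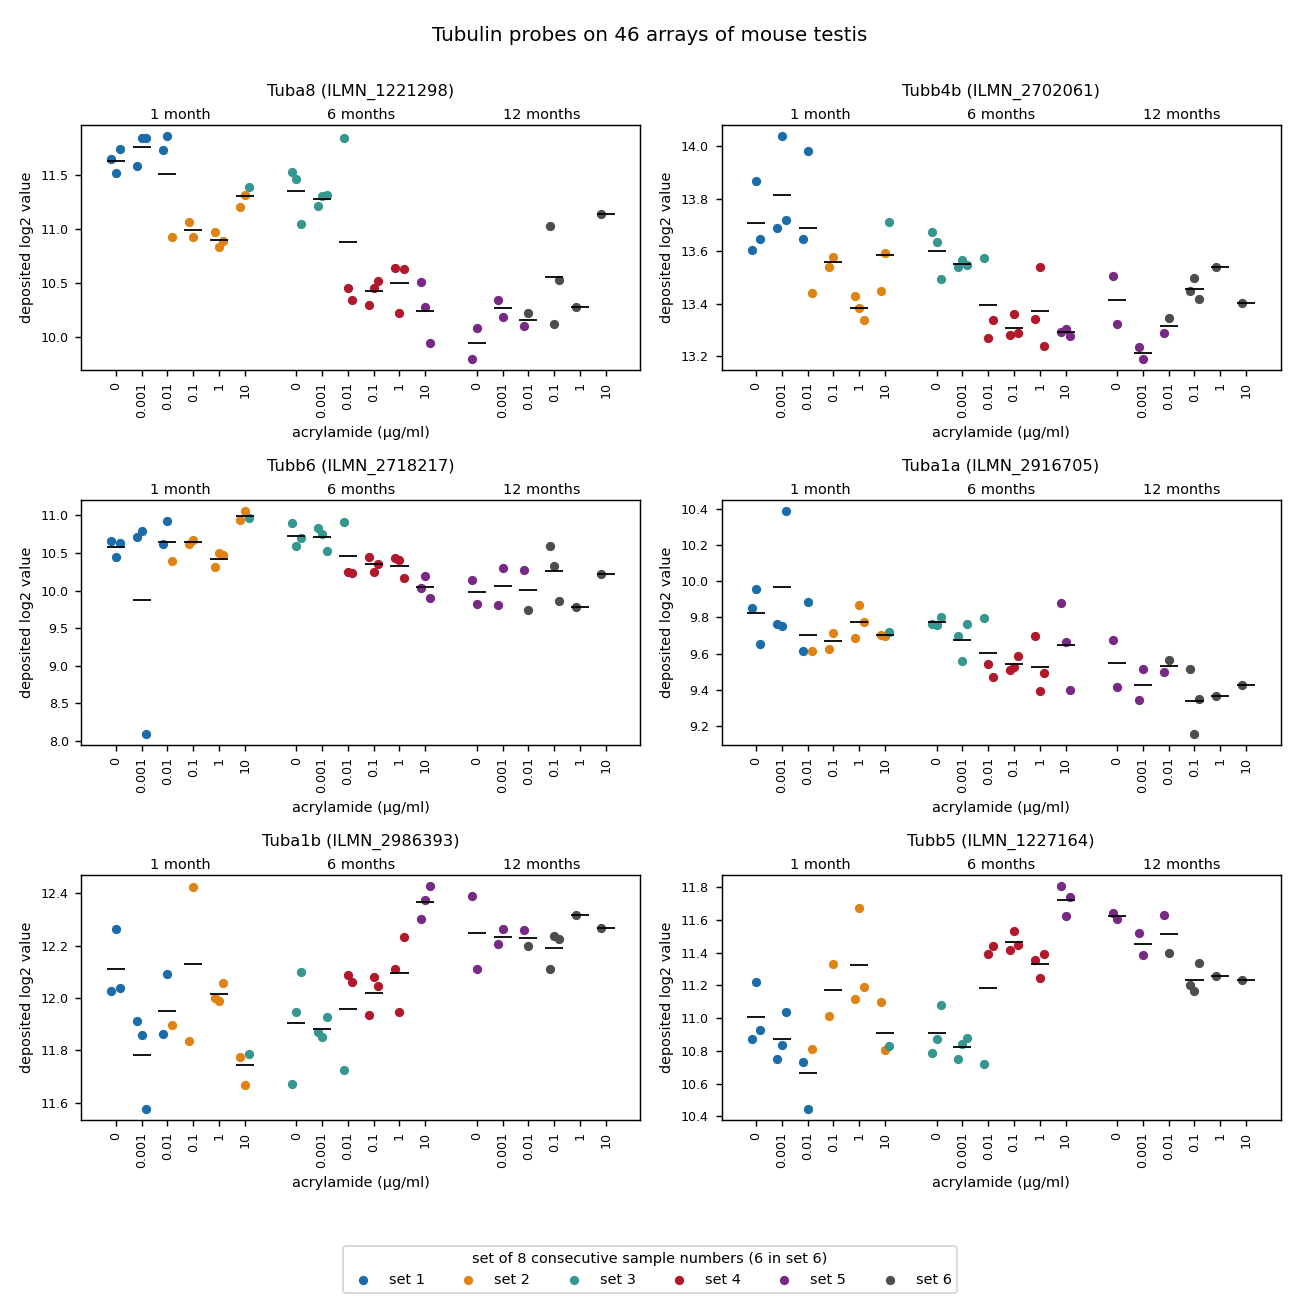
Deposited log2 values of 6 tubulin probes on all 46 arrays, by dose of acrylamide within each exposure time. Each point is 1 array, its colour is the set of consecutive sample numbers, and a black line is the group mean; Tuba8 falls to 9.80 at 12 months and is high in sets 1 and 3 and low in sets 4 and 5, Tubb5 is the reverse, and the single low Tubb6 point at 8.10 is the array that stood apart.

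The sets moved with these values. The mean of Tuba8 was 11.72, 11.02, 11.39, 10.45, 10.16 and 10.55 in sets 1 to 6. There were 4 groups split between sets. At 0.01 µg/ml and 6 months, replicates 2 and 3 in set 4 had Tuba8 values of 10.45 and 10.34, against 11.85 for replicate 1 in set 3, and Tubb5 values of 11.39 and 11.44, against 10.72. At 0.01 µg/ml and 1 month, replicate 3 in set 2 had a Tuba8 value of 10.93, against 11.73 and 11.86 for replicates 1 and 2 in set 1. These steps inside a group of one dose and time were -1.45 and -0.87 for Tuba8, beside the difference of -0.96 between 12 months and 1 month. In the other 2 split groups the Tuba8 step was small, with 11.39 in set 3, against 11.21 and 11.31 in set 2, at 10 µg/ml and 1 month (0.13), and 10.22 in set 6, against 10.10 in set 5, at 0.01 µg/ml and 12 months (0.12). The Tubb5 steps in the 4 groups were 0.69 and 0.22 in the first pair and -0.12 and -0.23 in the other.

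Arrays of 2 times share a set in 2 places, but at unlike doses, so time cannot be told apart from dose there. In set 3 the 1 array at 1 month (10 µg/ml) had a Tuba8 value of 11.39 and a Tubb5 value of 10.83. These lay inside the ranges of the 7 arrays at 6 months (control, 0.001 and 0.01 µg/ml), which were 11.05 to 11.85 and 10.72 to 11.08. In set 5 the 5 arrays at 12 months (control, 0.001 and 0.01 µg/ml) had Tuba8 values of 9.80 to 10.35. The 3 arrays at 6 months (10 µg/ml) had 9.94, 10.28 and 10.51, and these overlap. With the set as a fixed term the time differences averaged over the 6 doses could not be estimated. For these genes those differences cannot be told apart from set. Single doses were not compared between times with that term.

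**Figure D2:**
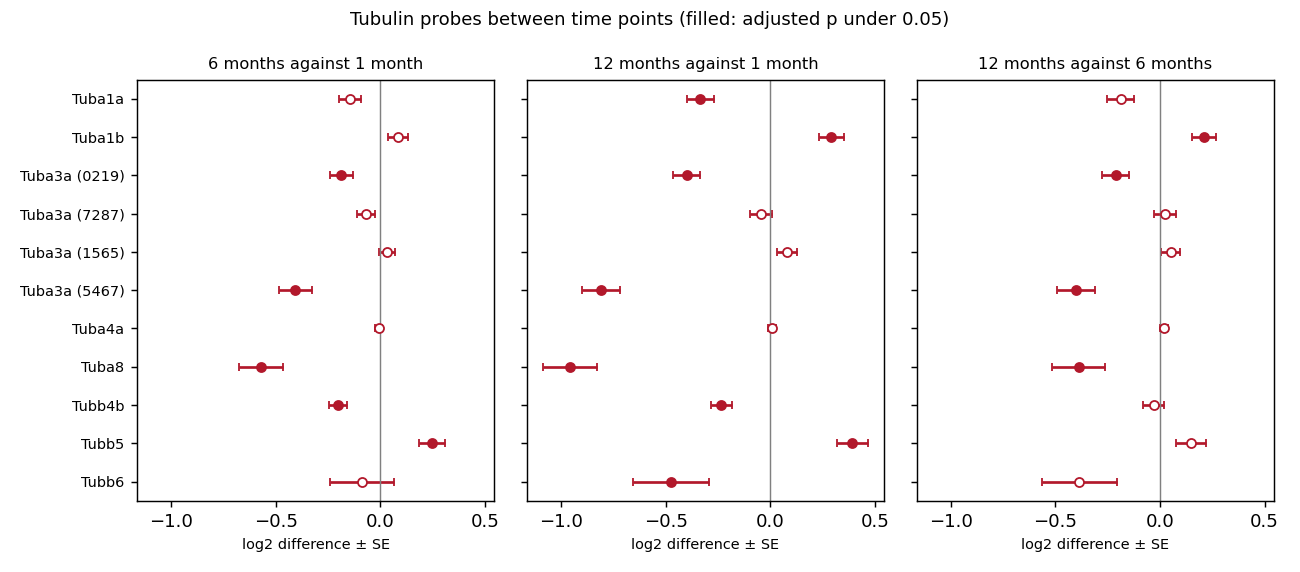
Differences in log2 value between exposure times (mean over 6 doses) for the 11 tested tubulin probes (horizontal axis, ± SE of the limma fit), with filled points for an adjusted p under 0.05. The 4 Tuba3a probes carry the last digits of their names; Tuba8 at -0.96 and a Tuba3a probe at -0.81 lie farthest to the left at 12 against 1 month and Tubb5 at 0.39 farthest to the right.

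The 4 probes of Tuba3a did not behave alike. The probe ILMN_2505467 had medians of 13.32, 12.78 and 12.51 at 1, 6 and 12 months and was 1.75-fold lower at 12 than at 1 month (-0.81 ± 0.09, adjusted p = 1.77e-07), and the probe ILMN_1220219 fell by 0.40 ± 0.07 (adjusted p = 2.25e-05). For the other two, ILMN_2467287 and ILMN_2491565, the differences were -0.04 ± 0.05 and 0.08 ± 0.05, neither past the threshold. ILMN_2505467 and ILMN_1220219 also passed at 6 against 1 month, at -0.41 ± 0.08 and -0.19 ± 0.05, and at 12 against 6 months, at -0.40 ± 0.09 and -0.21 ± 0.06. Across the 46 arrays ILMN_2505467 went with ILMN_1220219 (Spearman 0.82) and with Tuba8 (0.88), but against ILMN_2491565 (-0.46). The probe of the copy Tuba3b lay between 13.03 and 13.93, with medians of 13.73, 13.66 and 13.67 at 1, 6 and 12 months. At 6 months its mean was 13.74 with 10 µg/ml and 13.64 in controls. Tuba3a and Tuba3b are known as near-identical copies, and the probes were not placed on their transcripts here, so which copy each probe reads is uncertain. The fall of 2 of 4 probes is not a fall of the gene as a whole. At 12 against 6 months the call of ILMN_1220219 was lost in 9 of the fits that left out 1 array, and its value over all of them ran from -0.24 to -0.18.

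**Figure D3:**
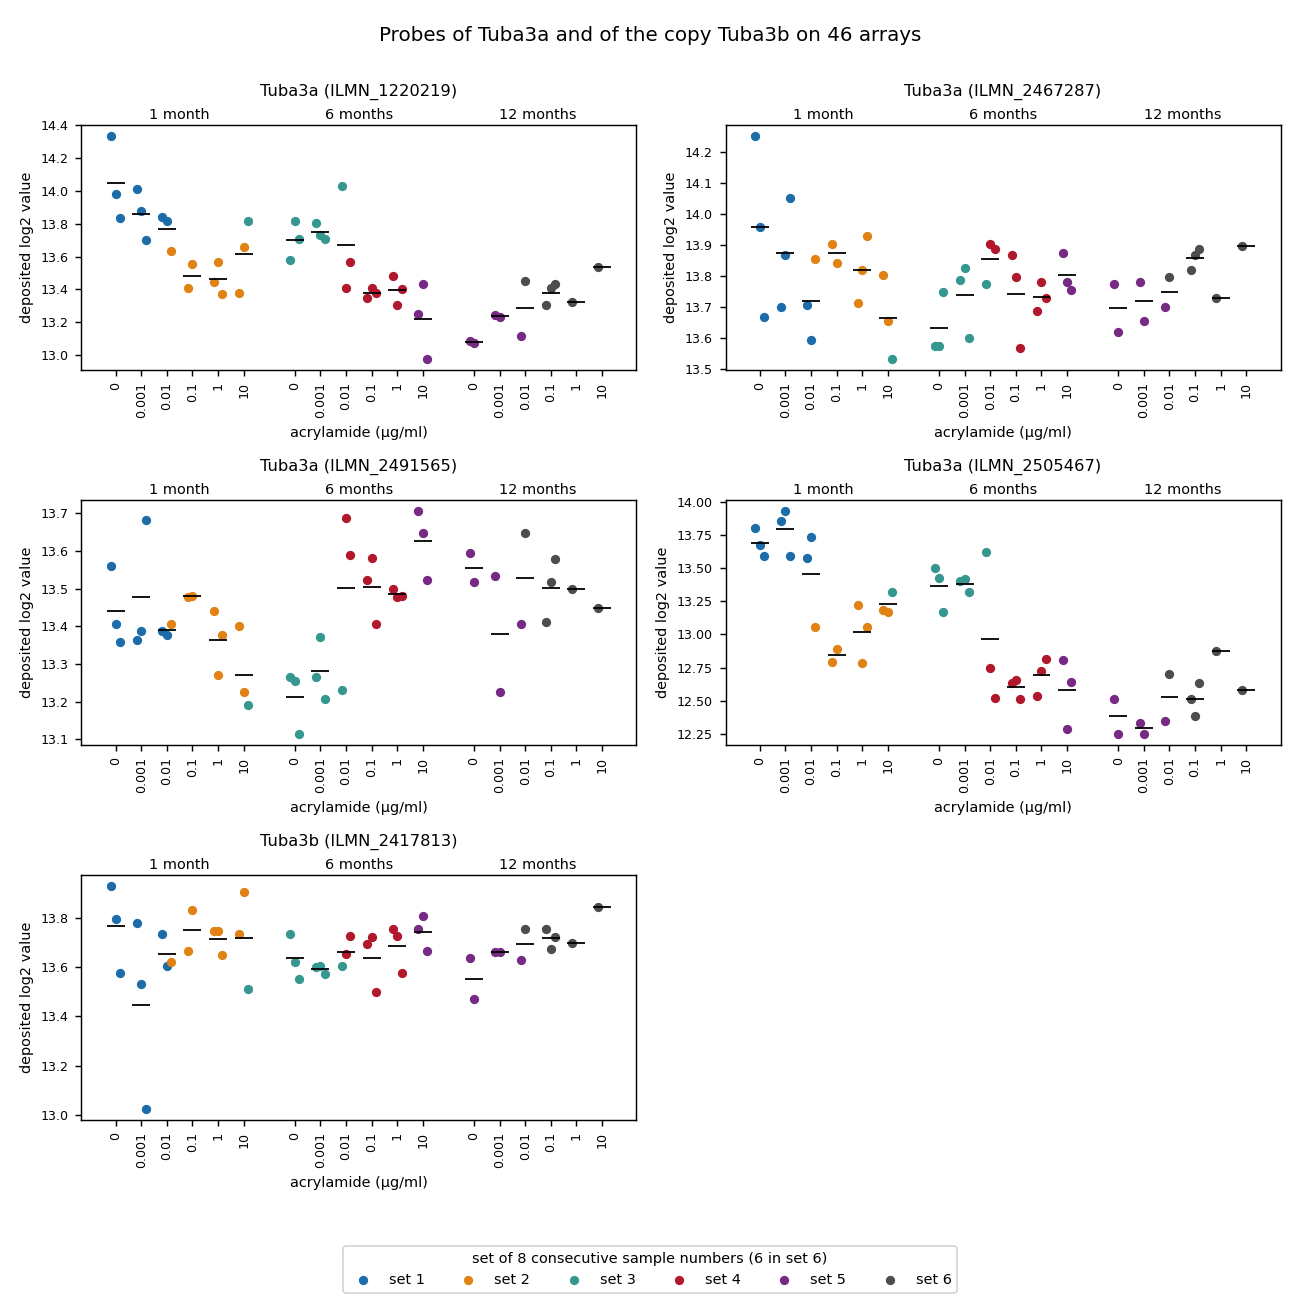
Deposited log2 values of the 4 Tuba3a probes and of the Tuba3b probe on all 46 arrays, by dose within each exposure time, with colours for sets and lines for group means. ILMN_2505467 spans 13.93 (highest, 1 month) to 12.25 (lowest, 12 months) and is stepped between sets, ILMN_1220219 follows it, ILMN_2491565 steps the other way at 6 months, and ILMN_2467287 has medians of 13.82, 13.78 and 13.78 at 1, 6 and 12 months.

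After 6 months of 10 µg/ml, Tubb5, Tuba1b and the Tuba3a probe ILMN_2491565 were higher than in controls, and Tuba8, Tubb4b and the Tuba3a probes ILMN_2505467 and ILMN_1220219 were lower. That is 7 of 11 probes, 3 higher and 4 lower, or 63.6%, beside 17.4% of all probes. The 3 arrays of 10 µg/ml had Tubb5 values of 11.81, 11.62 and 11.74, against 10.78, 10.87 and 11.08 in controls, with every treated array above every control. Tubb5 was 1.75-fold higher (0.81 ± 0.15, adjusted p = 0.000725). For Tuba8 the values were 10.51, 10.28 and 9.94 at 10 µg/ml, against 11.53, 11.47 and 11.05 in controls, with every treated array below every control. It was 2.15-fold lower (-1.11 ± 0.26, adjusted p = 0.00443).

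Tuba1b had values of 12.30, 12.37 and 12.43 at 10 µg/ml, against 11.67, 11.95 and 12.10 in controls (0.46 ± 0.12, adjusted p = 0.0081). The groups did not overlap, but the call was lost without control replicate 1, where the difference was 0.35. Tubb4b had values of 13.29, 13.30 and 13.28 at 10 µg/ml, against 13.67, 13.64 and 13.49 in controls (-0.31 ± 0.10, adjusted p = 0.0326). That call was lost when control replicate 1 or 2 or any of the 3 treated arrays was left out, with values of -0.32 to -0.27. It was lost too under cyclic loess normalization, and with the set as a random term without the array that stood apart. Tubb6 lay at 10.03, 10.20 and 9.91 at 10 µg/ml, below 10.89, 10.59 and 10.70 in controls, but did not pass (-0.68 ± 0.36, adjusted p = 0.202). Without the array that stood apart, which lies outside both groups but enters the shared estimate of the spread, the same Tubb6 difference had an SE of 0.17 and passed (adjusted p = 0.00305). The Tubb6 slope per dose step at 6 months was -0.13 ± 0.03 without that array (adjusted p = 0.000531) and -0.13 ± 0.06 with it (adjusted p = 0.111). Tuba1a had a difference of -0.13 ± 0.13, and its groups overlapped.

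For Tuba3a, ILMN_2505467 had values of 12.81, 12.29 and 12.64 at 10 µg/ml, against 13.50, 13.43 and 13.17 in controls (-0.79 ± 0.18, adjusted p = 0.00485). ILMN_2491565 had values of 13.71, 13.65 and 13.52 at 10 µg/ml, against 13.26, 13.25 and 13.12 in controls (0.41 ± 0.10, adjusted p = 0.00442). Both probes separated the groups fully and in opposite directions, with one annotation to the same gene. Under cyclic loess normalization the call of ILMN_2491565 was lost (0.37 ± 0.16, adjusted p = 0.108), as was that of its slope over dose at 6 months (adjusted p = 0.0643). ILMN_1220219 differed by -0.48 ± 0.13 (adjusted p = 0.0125) and ILMN_2467287 by 0.17 ± 0.10 (adjusted p = 0.268). The call of ILMN_1220219 was lost without control replicate 2 (-0.42) or treated replicate 3 (-0.36). It was lost too with the set as a random term without the array that stood apart.

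The lower doses were compared with the same 3 control arrays. At 0.1 µg/ml and 6 months 3 of 11 probes passed, 1 higher and 2 lower, beside 6.03% of all probes (3.15% higher and 2.87% lower): Tuba8 at -0.93 ± 0.26 (adjusted p = 0.0308), ILMN_2505467 of Tuba3a at -0.76 ± 0.18 (adjusted p = 0.0177) and Tubb5 at 0.55 ± 0.15 (adjusted p = 0.0247). All 3 calls were lost without control replicate 1 or 2 or any of the treated arrays. At 1 µg/ml 0 of 11 passed in limma, beside 0.311% of all probes, with -0.85 ± 0.26 for Tuba8 and 0.42 ± 0.15 for Tubb5. At an unadjusted p under 0.05 in limma 6 of 11 passed there, beside 2567 of all 15418 probes. At 0.01 and 0.001 µg/ml 0 passed, beside 0 of all probes. Unadjusted, 4 and 0 of 11 passed at these doses, beside 1316 and 140 of all 15418 probes. Over the 6 dose levels at 6 months the slope per dose step passed for 7 probes, 3 upward and 4 downward, beside 26.5% of all probes. It was -0.24 ± 0.04 for Tuba8 (adjusted p = 0.000274) and 0.17 ± 0.02 for Tubb5 (adjusted p = 3.88e-05).

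At 6 months dose and set run together. Set 5 held the 10 µg/ml group but no 6-month control, so neither this comparison nor the slope could be estimated with the set as a fixed term, and here dose cannot be told apart from set. The step between sets inside the 0.01 µg/ml group, -1.45 for Tuba8 and 0.69 for Tubb5, has the sign of the dose differences. In set 5, Tuba8 at 10 µg/ml and 6 months overlapped the 2 controls of 12 months, at 9.80 and 10.08, and Tubb5 lay at 11.62 to 11.81, against 11.61 and 11.64 in those controls. For 0.1 µg/ml, where the fit with the set could be made, the difference turned to 0.52 ± 0.29 for Tuba8, 0.23 ± 0.22 for ILMN_2505467 and -0.14 ± 0.22 for Tubb5, and 0 probes passed. In that fit sets 3 and 4 were joined only by the 0.01 µg/ml group, which had 1 array in set 3. The Tuba8 value of that array, 11.85, lay above the 3 controls (11.05 to 11.53). The turned differences rest on this 1 array.

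**Figure D4:**
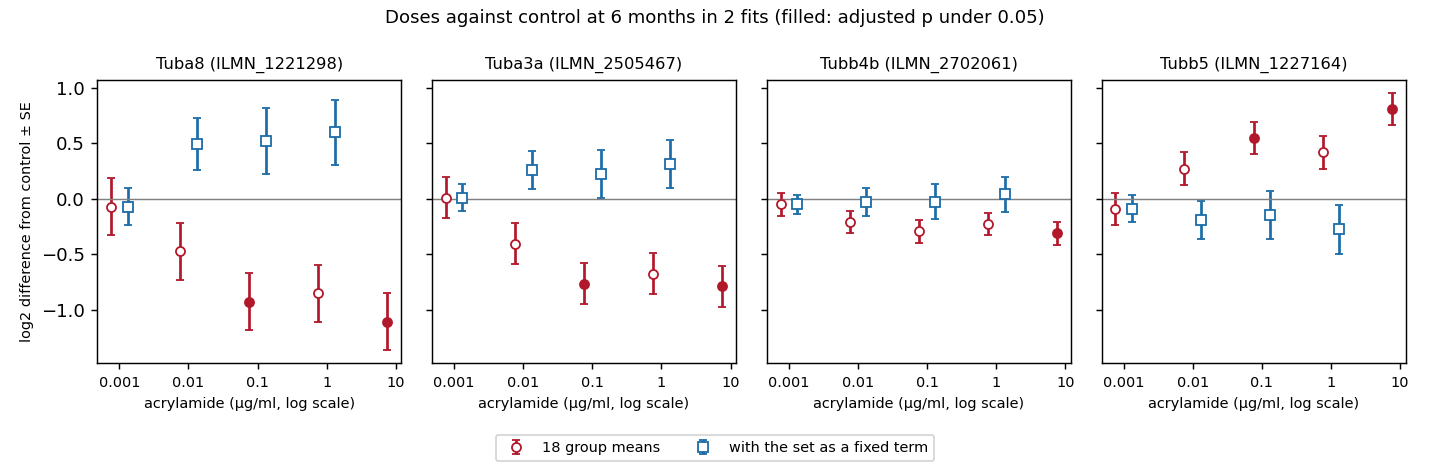
Log2 difference from control at 6 months (vertical axis, ± SE) against the dose of acrylamide on a log scale for 4 tubulin probes, in the fit of 18 group means (circles) and with the set as a fixed term (squares, not estimable at 10 µg/ml), filled where the adjusted p was under 0.05. The circles of Tuba8 go down to -1.11 and those of Tubb5 up to 0.81, while from 0.01 to 1 µg/ml the squares of Tuba8 lie at 0.50 to 0.60 and those of Tubb5 at -0.27 to -0.14. These squares rest on 1 array, the only one of 0.01 µg/ml in set 3.

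At 1 month, 1 of 11 tubulin probes passed at 1 µg/ml, beside 0.298% of all probes (0.0713% higher and 0.227% lower): ILMN_1220219 of Tuba3a, with 13.45, 13.57 and 13.37 at 1 µg/ml, against 14.33, 13.98 and 13.83 in controls (-0.59 ± 0.13, adjusted p = 0.0452). Leaving out 1 array ended this call in 20 fits, among them each that left out one of these 6 arrays, where the difference ran from -0.70 to -0.45. At 10 µg/ml 0 of 11 passed in limma, beside 0.0713% (0.0454% higher and 0.0259% lower). At an unadjusted p under 0.05 in limma 4 of 11 passed there, beside 1126 of all 15418 probes. At 0.001 and 0.01 µg/ml 0 passed, beside 0 of all probes. Unadjusted, 1 and 3 of 11 passed at these doses, beside 3966 and 308 of all 15418 probes. At 0.1 µg/ml 0 passed, beside 0.00649%, all of it higher, and unadjusted 3 of 11, beside 912 of 15418. The slope per dose step passed for 3 probes, all downward, beside 5.58% of all probes: ILMN_2505467 (-0.15 ± 0.03), ILMN_1220219 (-0.10 ± 0.02) and Tubb4b (-0.06 ± 0.02), the last a call lost in 9 of the fits that left out 1 array (-0.07 to -0.05 over all of them). Control and 0.001 µg/ml lay in set 1 and the higher doses mostly in set 2, and with the set as a fixed term 0 of these slopes passed, with 0.025 ± 0.036 for Tubb4b.

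At 12 months 0 of 11 probes passed at each dose. Of all probes, the lowest dose called 0 and the next, 0.01 µg/ml, 0.0130%. The share was 0.0389% with 0.1 µg/ml, 0.0324% with 1 µg/ml (0.0195% higher) and 0.0195% with 10 µg/ml. At an unadjusted p under 0.05 in limma 3 of 11 tubulin probes passed with 0.1 µg/ml, 2 with 10 µg/ml and 0 with the others. Of all 15418 probes 1317 passed so with 0.1 µg/ml and 1420 with 10 µg/ml. With 0.001, 0.01 and 1 µg/ml it was 1139, 1113 and 845. Tuba8 was at 11.14 on the 1 array of 10 µg/ml, against 9.80 and 10.08 in the 2 controls (1.20 ± 0.38, adjusted p = 0.249), above both. Tubb5 was at 11.23 on that array, against 11.64 and 11.61 in controls (-0.39 ± 0.22, adjusted p = 0.631). Controls were in set 5 and the array of 10 µg/ml in set 6.

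Markers of other cell types moved beside the tubulins. Of 9 tested elongating spermatid genes, 5 were lower and 1 higher at 10 µg/ml and 6 months (9.00% of all probes were higher and 8.37% lower), and the mean over the 9 was 13.07 to 13.12 in these 3 arrays, against 13.42 to 13.46 in controls. Of 9 round spermatid genes 4 were lower and 0 higher, with means of 11.12 to 11.21, against 11.47 to 11.59. Of 4 tested smooth muscle and peritubular genes 2 were higher, with means of 9.37 to 9.51, against 8.88 to 8.98, and of 11 Sertoli cell genes 4 were higher and 1 lower, with means of 9.87 to 9.90, against 9.62 to 9.69. Of 7 spermatocyte genes 1 was higher and 2 lower, with means of 11.64 to 11.68, against 11.60 to 11.77. Of 6 tested Leydig cell genes 0 passed, with means of 10.23 to 10.28, against 9.86 to 10.23; of 4 macrophage genes 0 passed, with means of 8.24 to 8.45, against 8.17 to 8.33; and of 5 endothelial genes 1 was higher, with means of 7.97 to 8.16, against 7.90 to 7.95.

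Markers of several cell types moved with exposure time too. The median over arrays of the mean level at 1, 6 and 12 months was 13.35, 13.27 and 13.15 for elongating spermatids, 11.54, 11.36 and 11.31 for round spermatids, 9.96, 10.20 and 10.23 for Leydig cells, 9.02, 9.07 and 9.23 for smooth muscle and peritubular cells, 8.14, 8.23 and 8.28 for macrophages and 7.93, 7.96 and 7.99 for endothelium. At 12 against 1 month 22.9% of all probes were higher and 18.3% lower. Of 6 Leydig cell genes 4 were higher there and 0 lower, among them Hsd17b3 (0.79 ± 0.11) and Insl3 (0.58 ± 0.15), the genes of the last enzyme of testosterone synthesis and of a hormone of testis descent. Of 9 round spermatid genes 3 were higher and 4 lower, one of the lower being Zpbp2 (-1.08 ± 0.13), a protein of the sperm acrosome, of 9 elongating spermatid genes 2 higher and 4 lower, of 11 Sertoli cell genes 3 higher and 2 lower, and of 7 spermatocyte genes 1 higher and 1 lower. The Sertoli cell and spermatocyte counts lie near or under the shares of all probes. Of the smooth muscle and peritubular genes 2 of 4 were higher, of the macrophage genes 2 of 4, and of the endothelial genes 3 of 5, with 0 lower in each. Across sets 1 to 6 the elongating spermatid mean was 13.46, 13.27, 13.41, 13.20, 13.09 and 13.15. The part of these cell types in the tubulin differences was not tested.

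Genes that work on tubulin were read as lists, each share beside the same share of all probes. That share was 22.9% higher and 18.3% lower at 12 against 1 month, and 9.00% higher and 8.37% lower at 10 µg/ml and 6 months. Both comparisons run together with the set for every gene, the markers above too. Time and dose cannot be told apart from set in these lists either. The CCT chaperonin folds new α- and β-tubulin, and of its 9 genes 6 were lower (66.7%) and 1 higher (11.1%) at 12 against 1 month (median difference -0.24, beside 0.01 for all probes). Cct8 had a difference of -0.61 ± 0.15, Cct2 of -0.24 ± 0.04 and Cct7 of -0.17 ± 0.04. The lowest mean of the 9 genes at 1 month, 9.91, was in the 0.001 µg/ml group, which holds the array that stood apart. At 10 µg/ml and 6 months (median -0.42, beside 0.02 for all probes) 3 were lower (33.3%), among them Cct7 (-0.33 ± 0.09) and Cct2 (-0.24 ± 0.08), and 1 was higher (11.1%), Cct6a (0.41 ± 0.13). The prefoldins, which hand tubulin to CCT, and the cofactors, which join the subunits, had 10 tested genes of 13, with 4 higher (40.0%) and 2 lower (20.0%) at 12 against 1 month (median 0.07) and 2 higher (20.0%) at 10 µg/ml and 6 months (median 0.14). Pfdn2, a prefoldin subunit, rose by 0.57 ± 0.08 with time and by 0.63 ± 0.16 with dose, Tbcd, a cofactor, by 0.21 ± 0.04 and 0.25 ± 0.07, and Vbp1, another prefoldin subunit, fell by 0.14 ± 0.04 with time.

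Among 5 tested genes of 11 that cut or destabilise microtubules, 3 were lower and 0 higher at 12 against 1 month (median -0.28) and 2 were lower (40.0%) at 10 µg/ml and 6 months (median -0.26). Spast, which severs microtubules, had differences of -0.66 ± 0.15 and -0.90 ± 0.30 in these comparisons, and Stmn1, which binds free tubulin dimers, of -0.53 ± 0.13 and -0.85 ± 0.26. Of 22 tested tubulin-modifying enzymes of 30, 5 were higher (22.7%) and 1 lower (4.55%) at 12 against 1 month (median 0.10) and 2 higher (9.09%) at 10 µg/ml and 6 months (median 0.09), so the shares of higher genes lie at those of all probes. Agbl4, a carboxypeptidase that removes glutamates, was higher by 0.45 ± 0.06 and 0.59 ± 0.12, and Lrrc49, a subunit of the polyglutamylase complex, by 0.44 ± 0.07 and 0.60 ± 0.14.

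The γ-tubulin ring and augmin genes, which start new microtubules, had 10 tested of 16, with 3 higher and 3 lower (30.0% each) at 12 against 1 month (median -0.03) and 1 higher (10.0%) at 10 µg/ml and 6 months (median 0.08), Haus8 (0.24 ± 0.07). Of 6 tested other tubulins of 10, 2 were higher with time (33.3%, median 0.16), Tubd1, the δ-tubulin of centrioles (0.41 ± 0.08), and Tubg2, a γ-tubulin (0.20 ± 0.04). At 10 µg/ml and 6 months 1 of the 6 was higher (16.7%), Tubg2 (0.30 ± 0.09). Of 16 tested microtubule-associated and plus-end genes of 20, 2 were higher (12.5%) and 1 lower (6.25%) with time (median 0.06), shares under those of all probes, and at 10 µg/ml and 6 months Mapre1, an end-binding protein, was higher (0.48 ± 0.11) and Mapre3 lower (-0.17 ± 0.06), 6.25% each (median 0.05).

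Across the 46 arrays most of the bright tubulin probes lay on 2 opposed sides. Tuba8 went with Tubb4b (Spearman 0.79), Tubb6 (0.70) and Tuba1a (0.68), Tubb5 went with Tuba1b (0.70), and Tuba8 and Tubb5 were opposed (-0.83), as were Tubb4b and Tubb5 (-0.78). Outside the tubulins, the genes whose tested probes were most like Tuba8 were Dkkl1 (0.935), Bud31 (0.934) and Exoc7 (0.933). Those most like Tubb5 were Tspan17 (0.905), Mtch1 (0.901) and Smn1 (0.896), and those most like Tubb4b were Ebna1bp2 (0.882), Aven (0.863) and Slc25a39 (0.840). Tubb6 was most like Ckap2l (0.916), Tuba1b most like Ivns1abp (0.841), and Tuba1a most like Ttyh2 (0.805). The brightest Tuba3a probe, ILMN_2467287, reached 0.550 with Dennd6a, and Tuba4a 0.547 with Uqcrh. These arrays share sets, times and doses, so the correlations describe these arrays and carry no test.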

How the data were processed

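RNA of 46 mouse testes was hybridised to Illumina Mouse Ref-8 bead arrays, 1 testis an array. The authors deposited processed values on the log2 scale, made with lumi per the submitters' processing notes; version and settings: not given in the sources used here. They also deposited non-normalized bead intensity values on a linear scale. Of 45 intensity columns, 33 are not in the probe order, so intensities served only as an alternative, with the order restored by rank for 25692 probes. For 1 further column the name was ambiguous and it stayed out. Median intensity ran from 107.8 to 221.4, and the number of arrays limits the precision. Against log2 intensity the deposited values had a slope of 0.517 between 7 and 8 and 0.996 between 11 and 12, so differences of dim probes are understated.

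Genes came from the array's annotation, which gives 23978 probes 1 symbol, 0 several and 1719 none, and all 14 tubulin probes matched RefSeq by gene ID. The 40% of probes with the lowest mean were left out. The other 15418 were fitted with limma 3.58.1 in R 4.3.3, with 1 mean for each of 18 groups taken from the titles and the spread shared by 46 arrays; two-sided p-values were adjusted by Benjamini and Hochberg over all of them. The fit was tested on simulated data. Comparisons were dose against control at each time, slopes over the dose rank from 0 to 5, their differences, and times averaged over doses. Nothing says whether mice shared a cage or RNA batch, so p-values measure the spread between these samples. List counts use the brightest probe of each gene.

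All probes of the 10 genes are described; from each other list at most 3 called genes with the smallest p could be named in a comparison, and for each tubulin gene the 3 most correlated genes. The members and lists were chosen with earlier results of these data known. Alternatives were the filter, cyclic loess, intensities, array weights, arrays of the same time, the replicate number or the set as a term, and each array left out. A lone array could not be left out of comparisons that use its group. The set as a random term, with and without the array that stood apart, was added after seeing the data.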

Additional observations from a re-analysis of the deposited data

Results flagged for a closer look

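Differences of 6 probes between dose slopes passed the test of the difference itself, which flagged them. Between 6 months and 1 month (10.9% of all probes passed) the slope per dose step was more upward at 6 months by 0.13 for Tubb5, by 0.11 for the Tuba3a probe ILMN_2491565 and by 0.11 for Tuba1b. Between 12 months and 1 month (2.69% of all probes passed) it was more upward at 12 months by 0.32 for Tuba8, by 0.23 for the Tuba3a probe ILMN_2505467 and by 0.18 for the Tuba3a probe ILMN_1220219. The first 3 could not be estimated with the set as a fixed term, and the last 3 did not pass with it. The Tubb5 difference was not called without control replicate 2 of 1 month (0.11), that of Tuba8 without control replicate 1 of 12 months (0.30) and that of ILMN_2505467 without control replicate 2 of 12 months (0.21). The slope at 12 months rests on 1 array each at 1 and 10 µg/ml, and neither could be left out. By itself that slope passed for 0 of 11 tubulin probes, beside 0.0130% of all probes.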

How the results depend on the processing

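Of 44 called differences of the tubulin probes, 19 were ended by no alternative and 14 by leaving out an array. Those 19 were all in comparisons where the set could not be fitted as a fixed term. Where it could be fitted it ended every call, with 5 weaker and 5 reversed. The 19 were thus not tested against the set in that way. In the count of tubulin probes called, array weights gave 3 in place of 0 at 10 µg/ml and 1 month, 1 in place of 0 at 10 µg/ml and 12 months, 6 in place of 1 over the 4 lower doses at 1 month and 16 in place of 3 over the lower doses at 6 months. The array that stood apart had a weight of 5.25e-05 there. Counts in this section are given without the share of all probes in the same fit. A change in them is therefore not read as particular to the tubulins. At the lower doses of 1 month 0 were called with no filter, cyclic loess, intensities, arrays of the same time, or the set as a fixed term. The set as a fixed term gave 0 at the lower doses of 6 months, and could not be fitted for the 3 time comparisons, 10 µg/ml at 6 months, the slope at 6 months and its difference from that at 1 month. No filter gave 2 in place of 4 at 12 against 6 months. The set as a random term changed no count by itself (correlation within a set -0.0024); without the array that stood apart the correlation was 0.172, and the counts were 3 in place of 5 at 6 against 1 month, 2 in place of 4 at 12 against 6 months, 0 at the lower doses of 1 and 6 months and 0 in place of 3 for the difference between slopes at 6 months and 1 month. The cause was not tested.

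A fixed term for the set reversed the sign of 5 called differences, and under no other alternative did any: at 0.1 µg/ml and 6 months Tuba8 (0.52), Tubb5 (-0.14) and ILMN_2505467 of Tuba3a (0.23), the slope of Tubb4b at 1 month (0.025), and ILMN_2505467 of Tuba3a in the difference between slopes at 12 months and 1 month (-0.0018). The reversals at 0.1 µg/ml rest on the 1 array of 0.01 µg/ml and 6 months in set 3.

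Each array was left out in turn, but a lone array of 12 months could not be left out where its group is used. This left 44 fits for 12 against 1 and 12 against 6 months and 45 for each dose count of 12 months. The other counts have 46 fits. The count was 5 to 6 probes at 6 against 1 month, 7 to 8 at 12 against 1 month and 2 to 6 at 12 against 6 months. With 10 µg/ml it was 0 to 0 at 1 month, 5 to 8 at 6 months and 0 to 0 at 12 months. At the lower doses it was 0 to 3 at 1 month, 0 to 11 at 6 months and 0 to 0 at 12 months. It was 7 to 8 for the slope at 6 months and 2 to 5 for the difference between slopes. At the lower doses of 6 months the count was 11 without 0.01 µg/ml replicate 1, 8 without the array that stood apart, and 0 without control replicate 1 or 2 or any replicate of 0.1 µg/ml. At those of 1 month it was 3 without 0.001 µg/ml replicate 1 or 2 or, at 6 months, 0.01 µg/ml replicate 1, 2 without the array that stood apart, and 0 without any of 20 others. The 12 against 6 months count was 2 without, at 6 months, replicate 2 of control or of 10 µg/ml or replicate 1 of 1 µg/ml, or, at 12 months, control replicate 2, either replicate of 0.001 µg/ml or replicate 1 of 0.01 µg/ml. The difference between slopes had 5 without 0.001 µg/ml replicate 1 of 1 month.

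The replicate numbers did not pair the samples: of 35 pairs of a treated and a control array of the same number and time, 6 had correlated deviations over 0.1. With the replicate block, 5 in place of 4 probes passed at 12 against 6 months, 5 at 6 against 1 month, 8 at 12 against 1 month, 7 at 10 µg/ml and 6 months, 7 for the slope there, 3 for the difference between slopes, 1 and 3 at the lower doses of 1 and 6 months, and 0 in the other 3 counts. Dim probes limit what can be seen of Tuba4a, Tubb2a and Tubb3.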
